A study of Homo sapiens with 2 samples.

Results

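Notch receptors, their ligands and the target gene HEY1 were examined in RNA-seq of Stage 6 cells, the last stage of a stepwise pancreatic differentiation of human embryonic stem cells. The members are 9 genes picked by symbol from 55797 genes, namely the receptors NOTCH1, NOTCH2 and NOTCH3, the ligands JAG1, JAG2, DLL1, DLL3 and DLL4, and HEY1. Each symbol matched 1 gene in both libraries, and all 9 genes had status OK in both. The cells came from H1, an established embryonic stem cell line, and the labels name no genetic modification. The live library (1 sample) was made from cells that were neither fixed nor sorted, with RNA isolated by the RNeasy protocol. The processed library (1 sample) was made from Stage 6 cells after fixation in 4% PFA, permeabilization, antibody staining and passage through the sorter with all cells collected, with RNA isolated by a modified RecoverAll kit. The comparison asks whether this treatment, named MARIS, changed the representation of transcripts. Whether both samples came from the same culture is not stated in the sources used here. With 1 sample per condition, no difference below has a replicate check and no test was possible.

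Notch signalling passes between touching cells. A ligand on a cell binds a receptor on its neighbour, proteases then cut the receptor, and its freed intracellular part joins RBPJ and a Mastermind protein on DNA and switches on repressor genes of the HES and HEY families. In the developing pancreas, Notch activity is known to hold back endocrine differentiation by repressing NEUROG3, while cells that make NEUROG3 present DLL1 to their neighbours. JAG1 and JAG2 form the Jagged family and DLL1, DLL3 and DLL4 the Delta-like family. DLL3 is known to differ from the others in that it does not activate receptors on neighbouring cells.

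Levels are given as FPKM (fragments of a gene divided by its exon length and by the library's fragment total), with the lower and upper bound deposited beside each value. FPKM is per length, so levels of genes can be set side by side, but dividing by length does not correct for uneven coverage along transcripts. The paper reports coverage leaning to the tail end of longer genes, which processing increased to a small degree. The bounds describe the precision within 1 library, their level is not stated, and they hold no variation between cultures. The log2 ratio of a gene sets its processed against its live FPKM after adding 1 to each, which makes differences of weakly expressed genes look smaller than they are. The FPKM of all genes summed to 510713 in the live and 499398 in the processed library, and 16004 and 15957 genes reached an FPKM of 1. Endocrine markers were present, with 12 of 12 reaching an FPKM of 1 in either library, INS among them at 98.3 FPKM in the live and 121 in the processed library. Pancreatic progenitor markers were likewise present, at 9 of 9. In such bulk samples, fewer cells of a type and less RNA per cell cannot be told apart.

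All 9 members were detected in both libraries, over a range of levels from 3.33 to 37.8 FPKM in the live library. No member differed 2-fold between the libraries. Of the 17326 expressed genes, that is those reaching an FPKM of 1 in either library, 12.8% did. Among the protein-coding ones, the closer comparison for the members, 906 of 13573 did. With only 9 members, nothing particular to them is read from this count. The bounds of live and processed cells did not overlap for 5 of 9 members, compared with 71.8% of the 17326 expressed genes. In each of these 5 the processed value was the lower one, and 43.7% of expressed genes were lower with separate bounds. The median log2 ratio of the members was -0.15, against -0.09 over all expressed genes. The direction depended on scaling. When processed values were divided by 0.932, the median of processed over live FPKM, each became larger by 0.10 on the log2 scale before 1 was added, and log2 ratios of weakly expressed genes moved by less. With that scaling, 2 of 9 members had separate bounds and a lower processed value (NOTCH2 and NOTCH3), and 1, DLL1, had separate bounds and a higher one. The same scaling took the share of lower values among all genes with separate bounds from 60.9% to 50.6%.

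**Figure D1:**
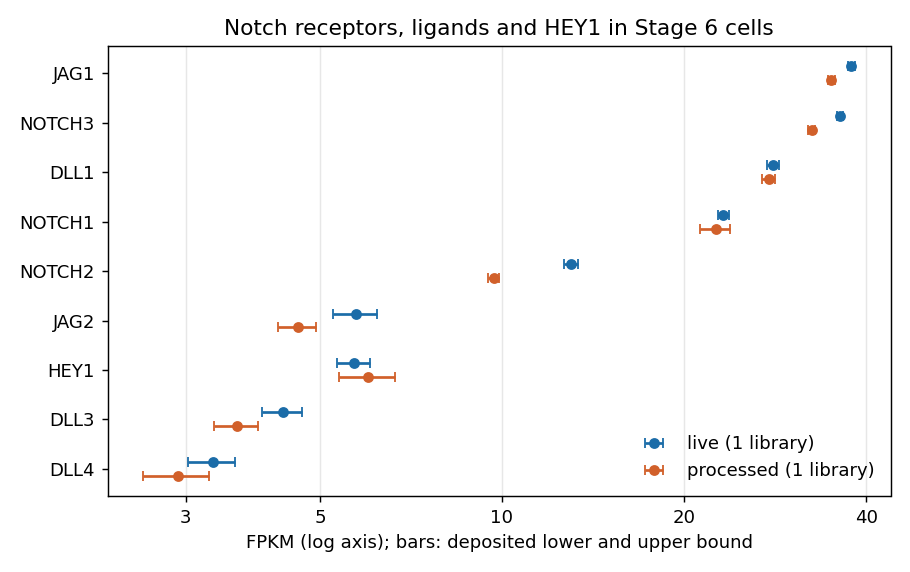
FPKM of each member (horizontal log axis) in the live and the processed library, with bars from the deposited lower to the deposited upper bound. JAG1, NOTCH3, DLL1, NOTCH1 and NOTCH2 follow in this order in both libraries, with NOTCH2 showing the widest gap between them, and JAG2 and HEY1 trade places.

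Among the receptors, NOTCH3, known for its role in vascular smooth muscle, was the most abundant. NOTCH3 (chromosome 19, 15270445 to 15311792, on GRCh37 as for the other genes) had an FPKM of 36.2 in the live library (bounds 35.7 to 36.6) and 32.5 in the processed library (bounds 32.1 to 32.9), a log2 ratio of -0.15. The processed value lay 10.1% below the live one, and the bounds were separate. NOTCH1 (chromosome 9, 139388896 to 139440314), a receptor known for its activating mutations in T-cell leukaemia, had 23.2 FPKM in the live library (22.7 to 23.7) and 22.5 FPKM in the processed library (21.3 to 23.8). Its log2 ratio was -0.04 and its bounds overlapped. The sign of NOTCH1 turned to higher in the processed library when processed values were scaled by the median ratio or to the same sum outside the mitochondrial chromosome. NOTCH1 overlaps a microRNA gene and a non-coding gene in the annotation of the files, and both were listed at 0 in both libraries.

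NOTCH2 showed the widest difference of the 9 members. Its FPKM was 13.0 in the live library (bounds 12.7 to 13.3) and 9.69 in the processed library (bounds 9.49 to 9.90), which lay 25.5% below the live value and gave a log2 ratio of -0.39. From the outer bounds, the log2 ratio lay between -0.45 and -0.33. The difference kept its sign under all scalings tried, and was -0.30 after scaling by the median ratio. A gap of this size was common among genes of similar level. Of 3511 protein-coding genes with a mean FPKM within 1.5-fold of that of NOTCH2, 24.6% had a lower log2 ratio. NOTCH2 also has the longest transcript of the members, at 11425 nt. For 547 protein-coding genes of like transcript length (within 1.2-fold), the median log2 ratio was -0.21, and 32.0% of them had a lower ratio than NOTCH2.

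NOTCH2 (chromosome 1, 120454176 to 120612240) is the one receptor with near-identical partial copies in the human genome, the NOTCH2NL genes, and this bears on how fragments were assigned to it. NOTCH2 and NOTCH2NLA aligned in 2 blocks between bases 4 and 753 of the NOTCH2 coding sequence. Over the 742 aligned bases they differed at 7 bases and were 99.1% identical. The gap between the blocks is not counted in these values. A stretch of 80 bases, the length of a read, is shown because it is centred on the first of these differences that has aligned bases on both sides to fill it. It lies in exon 3 of both genes, at chr1:120548016-120548095 on the minus strand for NOTCH2 and at chr1:145273301-145273380 on the plus strand for NOTCH2NLA (GRCh37, transcripts of GENCODE release 44), and capitals mark the bases that differ.
NOTCH2: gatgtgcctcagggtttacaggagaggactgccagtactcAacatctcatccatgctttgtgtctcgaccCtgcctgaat
NOTCH2NLA: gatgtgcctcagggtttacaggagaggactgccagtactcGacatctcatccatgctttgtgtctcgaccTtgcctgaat
A read covering this stretch could be told apart by 2 bases. Of the 11346 words of 80 bases in the longest coding transcript of NOTCH2, 286 (2.52%) also occurred in a transcript of another gene. All of these lay between bases 13 and 884 of 11425. In the files, the gene named NOTCH2NL (chromosome 1, 145209119 to 145291954) had 8.89 FPKM in the live library (bounds 8.40 to 9.37) and 7.10 in the processed library (bounds 6.70 to 7.50), a log2 ratio of -0.29. The copy was thus lower in the processed library together with NOTCH2, with separate bounds for each. How fragments from the shared part were divided between NOTCH2 and NOTCH2NL was not tested.

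The Jagged ligand JAG1 had the highest level of all members. JAG1 (chromosome 20, 10618332 to 10654608) had 37.8 FPKM in the live library (bounds 37.3 to 38.3) and 35.0 in the processed library (bounds 34.5 to 35.6), a log2 ratio of -0.11. Its bounds were separate, but scaling by the median ratio left a log2 ratio of -0.01. Of its 80-base words, 3.91% also occur in a long non-coding gene on the opposite strand that is not analysed here, whereas NOTCH1, NOTCH3, DLL3, DLL4 and HEY1 share 0 words with other genes. JAG2 (chromosome 14, 105607318 to 105635161) was much lower, with 5.74 FPKM in the live library (5.27 to 6.22) and 4.601 FPKM in the processed library (4.27 to 4.93). Its log2 ratio of -0.27 was second in size to that of NOTCH2. Its bounds were separate as deposited and overlapped after scaling by the median ratio. A long non-coding gene, RP11-44N21.4, overlaps JAG2 and had 0.686 FPKM in the live and 1.12 in the processed library, with overlapping bounds. It shares 6.87% of the 80-base words of JAG2, so reads from this part cannot be assigned with certainty.

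Of the Delta-like ligands, DLL1 was the abundant one. DLL1 (chromosome 6, 170591294 to 170599561) had 28.1 FPKM in the live library (bounds 27.5 to 28.7) and 27.6 in the processed library (bounds 26.9 to 28.3). Its log2 ratio of -0.02 was the smallest in size among the members and its bounds overlapped. The sign of DLL1 changed to higher in the processed library under each of the 3 scalings tried. In transcripts of a later release than that of the authors, 7.86% of the 80-base words of DLL1 were shared with FAM120B, a neighbour on the opposite strand. In the annotation of the files these genes did not overlap, as DLL1 ended at 170599561 and FAM120B started at 170599791. Whether the counting used strand is not stated. NEUROG3, the endocrine progenitor factor known to act upstream of DLL1, had 10.02 FPKM in the live and 7.29 in the processed library, a log2 ratio of -0.41 with separate bounds. DLL1 was thus close in both libraries, while NEUROG3 was lower in the processed one.

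DLL3 and DLL4 were the least abundant members. DLL3 (chromosome 19, 39989557 to 39999118) had 4.34 FPKM in the live library (4.01 to 4.67) and 3.65 FPKM in the processed library (3.35 to 3.95), a log2 ratio of -0.20 with separate bounds. Those bounds missed each other narrowly, since the upper processed bound of 3.95 lay just under the lower live bound of 4.01, and they overlapped under each of the 3 scalings. DLL4 (chromosome 15, 41221538 to 41231237), best known as a ligand of endothelial cells, had 3.33 FPKM in the live library (3.03 to 3.63) and 2.91 FPKM in the processed library (2.55 to 3.28), with overlapping bounds and a log2 ratio of -0.15. Endothelial markers were low in the live library, while in the processed library ERG, one of them, stood above DLL4. Of 8 listed, 7 matched a gene in the files, 2 reached an FPKM of 1 in a library, and CDH5 and VWF stood at 0.222 and 0.347 FPKM in the live and at 0.312 and 0.288 FPKM in the processed library. The endothelial list summed to 3.33 FPKM in the live and 5.82 in the processed library, with ERG at 0.0802 and 3.51 FPKM, and TIE1 and EMCN were listed at 0 in the processed library. Their part in the level of DLL4 was not tested.

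HEY1, a transcriptional repressor switched on by Notch, was the single member with a higher value in the processed library. HEY1 (chromosome 8, 80676245 to 80680098) had 5.70 FPKM in the live library (bounds 5.34 to 6.06) and 6.01 in the processed library (bounds 5.37 to 6.66), a log2 ratio of 0.07. The bounds overlapped over most of their width, and from the outer bounds the log2 ratio lay between -0.15 and 0.27. No difference of HEY1 was therefore detectable at this precision.

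In the order of levels, neighbours were separated by their bounds in all but 1 of 8 steps in the live library, the exception being JAG2 and HEY1 at 5.74 and 5.70 FPKM. In processed cells all 8 steps were separate, with HEY1 at 6.01 FPKM above JAG2 at 4.601 FPKM. NOTCH2 stood 2.27 times above JAG2 in the live library, the widest step in that library. In processed cells the widest step was that from NOTCH1 to NOTCH2, at 2.33 times, compared with 1.78 times in the live library. Effects of uneven coverage on the order were not tested, which matters most for narrow steps such as JAG1 over NOTCH3, at 1.045 times in the live library.

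**Figure D2:**
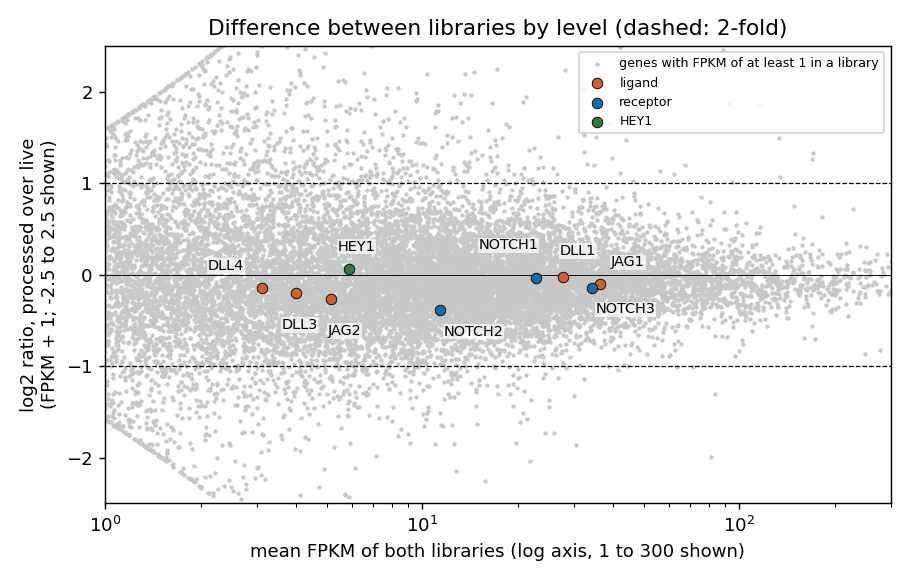
Log2 ratio of processed over live FPKM (vertical) against the mean FPKM of both libraries (horizontal log axis) for genes reaching an FPKM of 1 in either library (grey, as far as they fall within the range of the axes) and for the 9 members (coloured by role), with dashed lines at 2-fold. All members lie between the dashed lines, from NOTCH2 at -0.39 to HEY1 at 0.07.

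Each of the 9 members lay between the 5th and 95th percentiles of genes of its own level. Among protein-coding genes with a mean FPKM within 1.5-fold, the share with a lower log2 ratio ran from 24.6% for NOTCH2 to 67.4% for HEY1, and it was 46.5% for JAG1 and 40.4% for NOTCH3. For DLL4, the member with the lowest level, the 5th and 95th percentiles of these genes were -0.98 and 0.95, so a difference of the size seen in NOTCH2 would lie within them. For JAG1 they were -0.57 and 0.54. The genes nearest to a member in both libraries, by the distance in log2(FPKM + 1), were DHX30 and RBM23 for JAG1, MAEA and BRD7 for NOTCH3, and PAN2 and STARD3NL for DLL1. With 2 libraries this likeness says little, and 91, 87 and 99 genes lay within a distance of 0.1 of these 3 members.

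A share within a library does not depend on how that library was scaled. NOTCH3 made up 49.96% of the summed FPKM of the 3 receptors in the live library (49.1% to 50.8% from the outer bounds) and 50.2% in the processed library (48.8% to 51.7%). The share of NOTCH2 was 18.0% in the live library (17.4% to 18.6%) and 14.97% in the processed library (14.3% to 15.6%), and these ranges did not overlap. NOTCH1 took 32.1% of the sum in the live library (31.3% to 32.9%) and 34.8% in the processed library (33.2% to 36.4%), also with separate ranges. Shares of one sum are tied, so this is not a second, independent difference. The FPKM of NOTCH1 itself was 23.2 in the live and 22.5 in the processed library, with overlapping bounds. The separation for NOTCH1 was narrow. With NOTCH4 added to the sum, its ranges overlapped (30.8% to 32.5% in the live and 32.4% to 35.8% in the processed library), whereas those of NOTCH2 stayed apart.

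Among the 5 ligands, no share had separate ranges. JAG1 held 47.7% of the summed ligand FPKM in the live and 47.5% in the processed library. DLL1 held 35.4% in the live library (34.2% to 36.7%) and 37.4% in the processed library (36.1% to 38.8%), with overlapping ranges. JAG2, DLL3 and DLL4 together supplied the rest, with shares of 7.24%, 5.48% and 4.197% in the live and 6.23%, 4.94% and 3.95% in the processed library. A difference in ligand make-up was thus not detectable from the bounds.

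**Figure D3:**
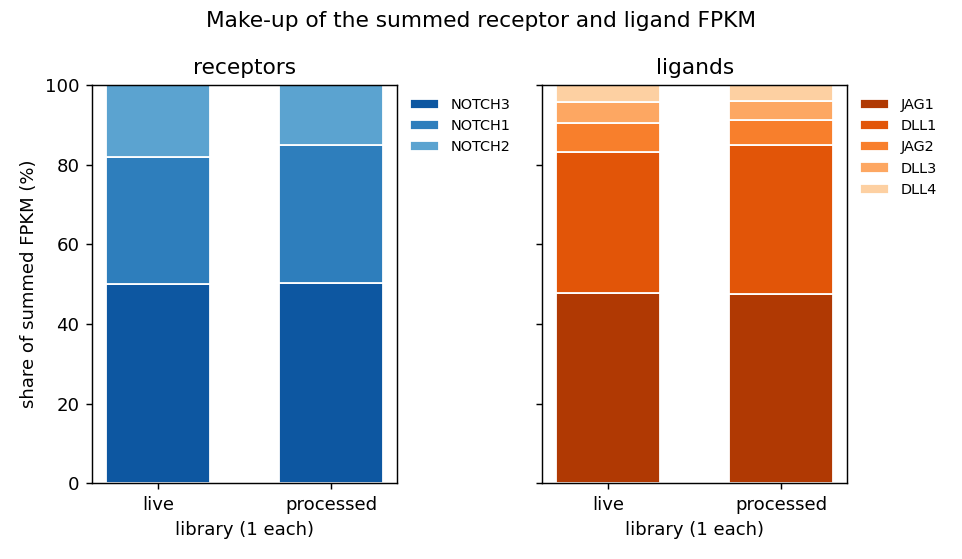
Stacked bars of the share (vertical, in % from 0 to 100) that each receptor (left) and each ligand (right) took of the summed FPKM of its group in the live and the processed library. NOTCH3 stays near 50% of the receptors and JAG1 near 47% to 48% of the ligands, while NOTCH2 goes from 18.0% to 14.97%.

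The rest of the Notch pathway was read from a list of 69 further genes in 8 roles, of which 66 reached an FPKM of 1 in either library. Bounds were separate for 43 of these 66, with 29 lower and 14 higher in the processed library, beside 43.7% lower and 28.1% higher over expressed genes. Of the 13573 protein-coding genes among these, 6375 were lower and 3468 higher with separate bounds. Past 2-fold were 2 of 66 genes, MFAP5 and NEURL, beside 12.8% of expressed genes and 906 of the 13573 protein-coding ones. Nothing particular to the pathway is read from these counts. NEURL came within 2-fold after scaling by the median ratio. The median log2 ratio of the list was -0.07.

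The fourth receptor, NOTCH4, was barely present, at 0.972 FPKM in the live library (bounds 0.797 to 1.15) and 1.33 in the processed library (bounds 1.13 to 1.53). Its bounds overlapped as deposited and were separate under each of the 3 scalings. Of the non-canonical ligands, 4 of 7 had a higher processed value with separate bounds and 1 a lower one. DLK1, a membrane protein related to the Delta ligands, exceeded every member by far, with 2139 FPKM in the live and 2302 in the processed library and a log2 ratio of 0.11. MFAP5, a microfibril protein, had 0.552 FPKM in the live library (0.259 to 0.846) and 5.04 FPKM in the processed library (4.02 to 6.05), a log2 ratio of 1.96.

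The counts by role that follow are descriptions, to be read beside 43.7% lower and 28.1% higher with separate bounds over expressed genes, which became 35.7% and 34.8% after scaling by the median ratio. Of 5 glycosyltransferases that modify Notch, 2 had separate bounds, both lower, with POGLUT1 at 6.28 and 5.14 FPKM in live and processed cells. The bounds of RFNG, the most abundant of them, overlapped, at 25.1 and 24.9 FPKM. Of 9 proteases and their subunits, 6 were lower and 2 higher with separate bounds. PSEN2, a catalytic subunit of γ-secretase, had 10.4 FPKM in the live and 7.16 in the processed library, and APH1A, another subunit and the most abundant, had 58.5 and 51.9 FPKM. Scaling by the median ratio left 4 proteases lower and 2 higher.

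In the list for the nuclear complex, which also holds RBPJL, 6 of 10 genes were lower and 0 higher with separate bounds. The counts were equal after scaling by the median ratio. RBPJ, the DNA-binding partner of all Notch receptors, had 42.5 FPKM in the live library and 40.2 FPKM in the processed library with overlapping bounds. Its log2 ratio was -0.08 and changed sign, to 0.02, with scaling by the median ratio. RBPJL, a relative of RBPJ known from acinar cells, was among the 6 lower genes, with 1.63 and 0.365 FPKM and a log2 ratio of -0.95. Corepressors were divided, with 5 of 12 lower and 3 higher with separate bounds, which became 2 and 4 after scaling by the median ratio. HDAC2, the most abundant, had 186 and 172 FPKM, and CTBP2 differed most, at 63.4 and 41.4 FPKM. Of the 13 genes of ligand and receptor trafficking and turnover, 7 were lower and 3 higher with separate bounds, beside 43.7% and 28.1% of expressed genes, and their median log2 ratio of -0.38 was the lowest of the 8 roles. MIB2, a ubiquitin ligase of the Notch ligands, had 37.8 FPKM in the live and 55.1 in the processed library, a log2 ratio of 0.53. NEURL, another such ligase, had 9.13 FPKM in the live library (8.53 to 9.73) and 3.88 FPKM in the processed library (3.64 to 4.11), a log2 ratio of -1.05.

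**Figure D4:**
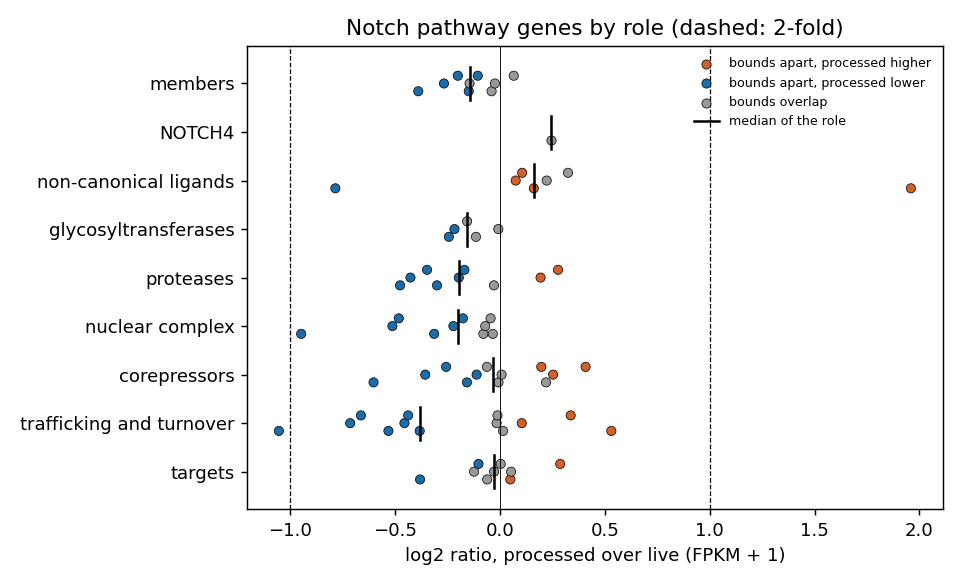
Log2 ratio of processed over live FPKM (horizontal) for the 9 members and for 66 other pathway genes by role (rows), coloured by whether the deposited bounds of the libraries overlap, with a vertical bar at each median and dashed lines at 2-fold. MFAP5 at 1.96 and NEURL at -1.05 are the points outside the dashed lines.

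Other genes listed here as targets of Notch, namely the HES and HEY families, NRARP and SOX9, were divided. HES and HEY genes were listed by family, and whether each responds to Notch was not tested. Of 9 that reached an FPKM of 1, 2 were higher and 2 lower with separate bounds, and the median log2 ratio was -0.03. The higher ones were HES6, at 31.4 and 38.5 FPKM, and SOX9, at 82.4 and 85.3 FPKM, and the lower ones HES1 and HES3. Scaling by the median ratio left 3 higher and 0 lower. HES1, a main effector of Notch in the pancreas, had 93.6 FPKM in the live and 87.1 in the processed library, a log2 ratio of -0.10 with bounds that were separate as deposited. It stood far above HEY1 in both libraries. The relatives of HEY1 were lower than HEY1 itself, with HEYL at 3.62 and 3.63 FPKM and HEY2 at 1.12 and 1.08 FPKM, and the bounds of both overlapped. HES3 differed most of the listed targets, with 3.14 FPKM in the live and 2.18 in the processed library.

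RBPJ is known to bind the word GTGGGAA, and this word was searched for in the promoters of the listed targets and of the members. Promoters here are the 250 bases before and 50 bases after the start of a gene, from RefSeq on GRCh38.p14. The word was found on either strand in 5 of the 10 target genes with a promoter in the table, in 0 of the 6 members with one (NOTCH1, NOTCH2, NOTCH3, JAG1, JAG2 and DLL4), and in 6.25% of all 35116 promoters. The table has no entry for DLL1, DLL3 and HEY1. The 5 matches are printed with 20 bases on either side, because they show the word in genes of very different level, and capitals mark the word or its reverse complement.
HES1: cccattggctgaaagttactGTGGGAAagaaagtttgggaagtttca
HES4: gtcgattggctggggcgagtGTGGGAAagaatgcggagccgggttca
HES5: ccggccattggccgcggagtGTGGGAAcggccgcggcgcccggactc
HEY2: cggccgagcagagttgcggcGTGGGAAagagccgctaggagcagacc
HEYL: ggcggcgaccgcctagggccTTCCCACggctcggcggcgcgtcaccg
They lie at chr3:194136043-194136089 (plus strand), chr1:1000148-1000194 (minus), chr1:2530318-2530364 (minus), chr6:125749608-125749654 (plus) and chr1:39639795-39639841 (minus). The word began 85, 77 and 81 bases before the start of HES1, HES4 and HES5, 4 bases before that of HEY2 and 178 bases before that of HEYL. HES5 and HEY2 each held another copy farther out, a feature of 0.248% of all promoters. Genes with the word differed widely in level, as HES4 (named here for its sequence) stood at 47.8 (live) and 43.8 FPKM (processed) and HES5 at 3.55 and 3.36 FPKM, with overlapping bounds for both. A match describes letters and not binding.

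Markers of cell types in which Notch genes are known to be prominent were read in the same way. Their counts stand beside 43.7% lower and 28.1% higher with separate bounds over expressed genes (35.7% and 34.8% after scaling by the median ratio), and nothing particular to a list is read from them. Of 7 smooth muscle and pericyte markers, a lineage known for NOTCH3, 5 reached an FPKM of 1, and with separate bounds 3 were lower and 2 higher in the processed library. Their summed level was 125 FPKM in the live and 111 in the processed library. TAGLN supplied most of it, at 98.3 and 88.4 FPKM. None was at 0, but MYH11 and CSPG4 were near it, at 0.0860 and 0.223 FPKM in the live library. Besides TAGLN, the lower ones were ACTA2, at 6.10 and 2.43 FPKM, and RGS5, at 10.1 and 5.11 FPKM. The higher ones were CNN1, at 9.62 and 13.1 FPKM, and DES, at 0.0528 and 1.58 FPKM. Stromal markers (8 of 8 at an FPKM of 1) summed to 99.0 and 93.3 FPKM, with 4 lower and 2 higher. Within this sum, DCN was higher (4.18 and 12.4 FPKM) and PDGFRB lower (4.26 and 1.17 FPKM), both past 2-fold. Neural markers (9 of 9) summed to 292 and 253 FPKM, with 7 lower and 1 higher. Duct markers (6 of 6) summed to 623 and 592 FPKM, with 3 lower and 1 higher. KRT19 supplied most of the duct sum, at 543 and 518 FPKM. Endocrine markers summed to 2349 and 2329 FPKM, with 5 lower and 4 higher. CHGA, a secretory granule protein, supplied most of the endocrine sum, at 1794 and 1741 FPKM, and had status FAIL in the processed library. The part of these cell types in the values of the Notch genes was not tested.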

How the data were processed

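RNA of 1 live and 1 processed sample of H1-derived Stage 6 cells was selected by poly-A and read as 80 nt pairs. The authors aligned reads to GRCh37/hg19 with STAR 2.2.0c and deposited FPKM values, each between 2 bounds. The submitters' processing notes list Cufflinks 2.0.2 without a role, and the paper's methods name Cuffdiff of the same version for the FPKM. Read counts were not used here, so depth is seen only through the bounds.

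Libraries were joined by gene identifier, since only 5489 of 55797 genes stood in the same row. Log2 ratios used a pseudocount of 1 FPKM, and counts used genes that reached an FPKM of 1 in either library. Starts were moved by 1 base to count from 1. Transcripts came from GENCODE release 44 on GRCh37, a later release than that of the authors, which held 94.5% of the identifiers. Words of 80 bases were matched on both strands. The code was tested on simulated data. Sequences were aligned with Biopython 1.88, and values were computed with pandas 2.3.3 and numpy 2.4.6 under Python 3.11.15.

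The members, lists and comparisons were chosen with earlier results of these data known. Pathway genes named were NOTCH4, HES1, HEY2, HEYL, RBPJ, NEUROG3 and, in each role, those with the highest mean FPKM and the largest log2 ratio in size. For the 3 most abundant members, the 2 nearest genes were named. HES4, HES5, FAM120B and single markers were named, and the bands of like level and length set, after values were seen. Genes with status FAIL (98 in the live and 46 in the processed library, the marker CHGA among the latter) were kept in the counts. One gene is not reported here by name. Acinar, pluripotent and macrophage markers reached an FPKM of 1 for 4 of 7, 5 of 5 and 1 of 5 genes. Alternatives covered pseudocount, filter and scaling.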

Additional observations from a re-analysis of the deposited data

How the results depend on the processing

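The limits are set by 1 library per condition and by bounds that hold no variation between cultures. No paired analysis was possible because each condition has 1 sample, and for the same reason no replicate could be left out. For the members, the number past 2-fold was 0 under all 6 alternatives, and the median log2 ratio stayed below 0 in all 6. Of these, dropping the filter could change no result of the members, as every member had passed it. The number of members with separate bounds went from 5 to 3 after scaling by the median ratio, and to 3 when an FPKM of at least 10 was required, as fewer members were then counted. The log2 ratios of single members left the range of their outer bounds in 6 of 36 recalculations, all of them scalings, and kept their sign wherever the bounds had been separate. For the other pathway genes, 2 past 2-fold became 4 with a pseudocount of 0.1, 1 after scaling by the median ratio and 0 with an FPKM of at least 10. Leaving DLL3 out of the ligand sum, which makes the sum smaller, gave JAG1 shares of 50.4% in live and 49.9% in processed cells and DLL1 shares of 37.5% and 39.3%. Adding NOTCH4 to the receptors moved no share outside its range, but ended the separation of the NOTCH1 ranges.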

Other observations

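The width of the deposited bounds did not go with level alone. For NOTCH1 the half-width was 2.07% of the FPKM in live cells and 5.61% in processed cells, 2.70 times as wide, although the levels were 23.2 and 22.5 FPKM. For HEY1 it was 6.27% and 10.7%, 1.70 times as wide, and for DLL4 8.94% and 12.4%. NOTCH2 went the other way, with 2.55% in live and 2.09% in processed cells, despite its lower processed level. JAG1 was at 1.37% and 1.49%, and NOTCH3 at 1.19% and 1.31%. The cause of these widths was not tested.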
